A study of Mus musculus with 58 samples.

Results

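The kidneys of mice given trichloroethylene (TCE) at 6 mmol/kg were compared with the kidneys of mice given its vehicle. The TCE 6 mmol/kg group held 3 libraries and the TCE vehicle group held 3, together 6 of the 58 RNA sequencing libraries of the series, which covers kidney and liver, TCE and the related solvent tetrachloroethylene (PCE), and 4 doses of each (0.22, 0.67, 2 and 6 mmol/kg) with a vehicle group per solvent. Membership followed the labels for tissue, chemical and dose, and no measured value was used. All animals were adult male mice of 5 to 6 weeks, described as B6C3F1/J in the housing protocol and as C57BL/6 in the strain field. Each received 1 intragastric dose between 07:00 and 09:00, of TCE at about 800 mg/kg or of the vehicle alone, 5% Alkamuls El-620 in saline at 5 mL/kg. The sources used here do not give the time between dosing and tissue collection. Nor do the labels say that each library came from a separate animal. The p-values of the main comparison thus measure the spread between libraries within groups, over all 29 kidney libraries, and that spread may be technical.

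TCE is a chlorinated solvent that is oxidised mainly in the liver, by cytochrome P450 enzymes, to trichloroacetic acid and other products that activate the lipid-sensing receptor PPARα. A smaller share is conjugated to glutathione, and the conjugate is processed by γ-glutamyl transferase, dipeptidase and cysteine conjugate β-lyase in the kidney's proximal tubule, the segment that reabsorbs filtered amino acids and secretes organic anions. Shortage of amino acids or other stress acts through the transcription factor ATF4, which raises genes of asparagine, serine and folate-linked one-carbon metabolism.

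The 6 libraries held 23706212 to 29718602 gene counts at TCE 6 mmol/kg and 23462407 to 28443387 in the vehicle group, within the 23247565 to 32420329 of all 29 kidney libraries. Vehicle library 3 stood apart: a transcript with no gene name in the tables used took 5.49% of its counts, against 0.109% to 0.899% in the other 28 kidney libraries, and Lars2, a mitochondrial leucyl-tRNA synthetase, took 1.79% against 0.182% to 0.84%. Dose libraries 1 and 2 carried brown fat RNA. Ucp1, the uncoupling protein that defines brown fat, had 40.5, 107 and 0.974 CPM (counts scaled to a common library total after TMM normalisation) in dose libraries 1, 2 and 3, against 3.33, 3.10 and 5.09 in the vehicle libraries. Over the 16 of 17 listed brown fat markers that were found among the genes, the summed level was 353.1, 415.4 and 231.8 CPM at the dose and 241.4, 234.7 and 234.3 CPM in vehicle. Zic1 was at 0 in all 6 libraries. Dose libraries 1 and 2 lay above all vehicle libraries in this sum, and dose library 3 just below them. Fabp3, Kng2 and Slc27a1 made up most of the sum in dose library 3, at 82.0, 63.0 and 63.3 CPM. For Ucp1, Cidea and Cox8b dose library 3 lay below every vehicle library, with Cidea at 0.423 CPM, against 1.27 to 2.42 CPM. Vehicle library 2 had the most RNA of the liver gene Alb, at 83.0 CPM, against 28.5, 6.85 and 11.7 CPM at the dose and 7.06 and 21.6 CPM in the other vehicle libraries. Adrenal RNA was near 0 in the 6 libraries, at 7.16 to 13.96 CPM summed over 15 markers.

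At TCE 6 mmol/kg 25 of the 14216 genes tested changed (0.176%), 9 higher (0.0633%) and 16 lower (0.113%), in edgeR's quasi-likelihood F test with Benjamini-Hochberg adjustment at 0.05; a change so called is meant by rose, fell or called below. Genes that rose belonged to asparagine, serine and one-carbon synthesis (Asns, Phgdh, Mthfd2), fatty acid binding (Fabp1) and DNA replication (Pole, Mcm6), with Pigz, Sptlc3 and Rsad1. Genes that fell included the transporters Slc22a7, Slc7a13 and Slco3a1, the ecto-nucleotidase Nt5e, and the enzymes Kmo, Ivd, Lap3, Ggct, Acad12 and Eci3. All 25 had the 3 dose libraries on one side of the 3 vehicle libraries, a separation that 8.1% of all tested genes showed upward and 7.82% showed downward. The median log2 fold change over all tested genes was 0.0073, and 1439 genes had an unadjusted p under 0.05.

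**Figure D1:**
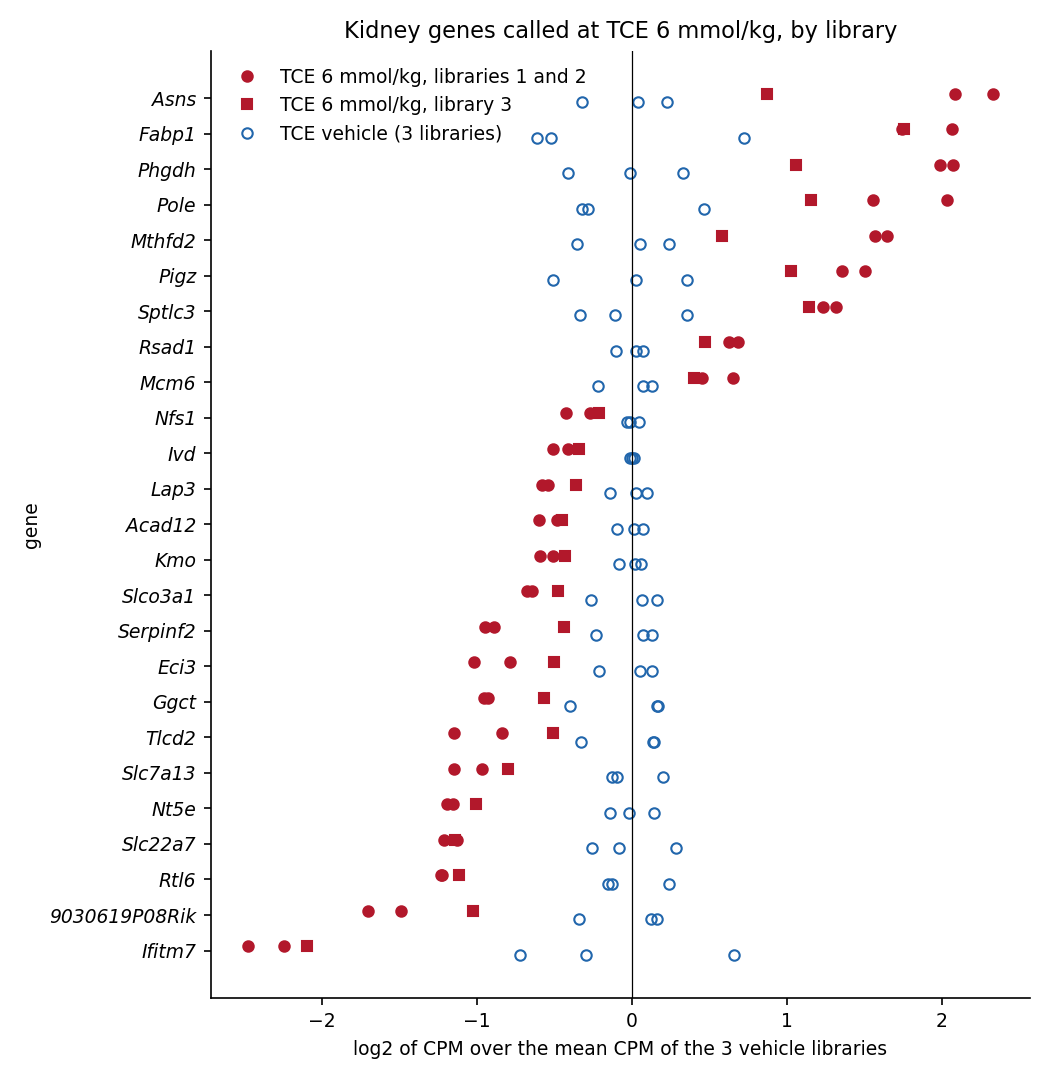
Each row is 1 of the 25 called genes and each point 1 kidney library, placed at the log2 of its CPM over the mean CPM of the 3 vehicle libraries. Filled circles are TCE 6 mmol/kg libraries 1 and 2, squares TCE library 3 and open circles vehicle; in all 25 rows the 3 dose points lie on one side of the 3 vehicle points, and for Asns, Phgdh and Mthfd2 the square is the dose point nearest to vehicle.

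The count of called genes rested on few libraries. It was 0 when dose library 1, dose library 2 or vehicle library 1 was left out. It was 10 with vehicle library 2 left out, 46 with dose library 3 left out and 55 with vehicle library 3 left out. All 25 genes were still called without vehicle library 3, the library with the unnamed transcript. With both dose libraries that carried brown fat RNA left out, dose library 3 stood alone, its spread was taken from the other groups, no gene was called (825 at an unadjusted p under 0.05) and all 25 genes had the same sign as before. The log2 fold change then moved by over 1.5 times for 6 of the 25, Asns, Phgdh, Mthfd2, Tlcd2, Serpinf2 and Eci3.

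Asns, asparagine synthetase (chromosome 6, 7675165 to 7693209, GRCm38.p6), had 26.2, 31.0 and 11.3 CPM at the dose, against 6.36, 4.96 and 7.23 CPM in vehicle. The mean was 22.9 ± 10.3 CPM at the dose and 6.18 ± 1.15 CPM in vehicle (SD, n = 3 each), a log2 fold change of 1.89 (SE 0.33, adjusted p = 0.0211). All dose libraries lay above all vehicle libraries, and dose library 3 lay closest to them. Phgdh, the first enzyme of serine synthesis (chromosome 3, 98313171 to 98339969), had 56.6, 60.0 and 29.8 CPM at the dose, against 10.7, 14.1 and 17.9 CPM in vehicle, a log2 fold change of 1.77 (SE 0.33, adjusted p = 0.0245). Mthfd2, a mitochondrial folate enzyme of one-carbon metabolism (chromosome 6, 83305704 to 83326011), had 15.3, 16.1 and 7.75 CPM at the dose and 4.03, 5.36 and 6.10 CPM in vehicle (log2 fold change 1.34, SE 0.28, adjusted p = 0.0448). The same 2 libraries were highest for all 3 genes, and they were the 2 with brown fat RNA. From dose library 3 alone the log2 fold changes were 0.87 for Asns, 1.06 for Phgdh and 0.58 for Mthfd2. In the 5 kidney libraries of other groups, apart from PCE 6 mmol/kg, that held Ucp1 at 33.8 to 90.4 CPM, Asns was at 3.94 to 6.66 CPM, Phgdh at 17.5 to 35.8 CPM and Mthfd2 at 4.24 to 7.55 CPM. In these 5 libraries Asns was no higher than in the highest TCE vehicle library. Phgdh lay above the highest TCE vehicle library in all of them but PCE 0.22 mmol/kg library 3. Mthfd2 did so in TCE 0.67 mmol/kg library 3. Ucp1 in the 5 libraries stayed below the 107 CPM of dose library 2. Both PCE vehicle libraries, with Ucp1 at 2.38 and 9.40 CPM, also held more Phgdh than any TCE vehicle library, at 19.6 and 24.4 CPM. PCE 6 mmol/kg library 3, set apart here, held Ucp1 at 111 CPM and Asns at 41.2 CPM. The part of brown fat RNA in the change at 6 mmol/kg was not tested further.

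**Figure D2:**
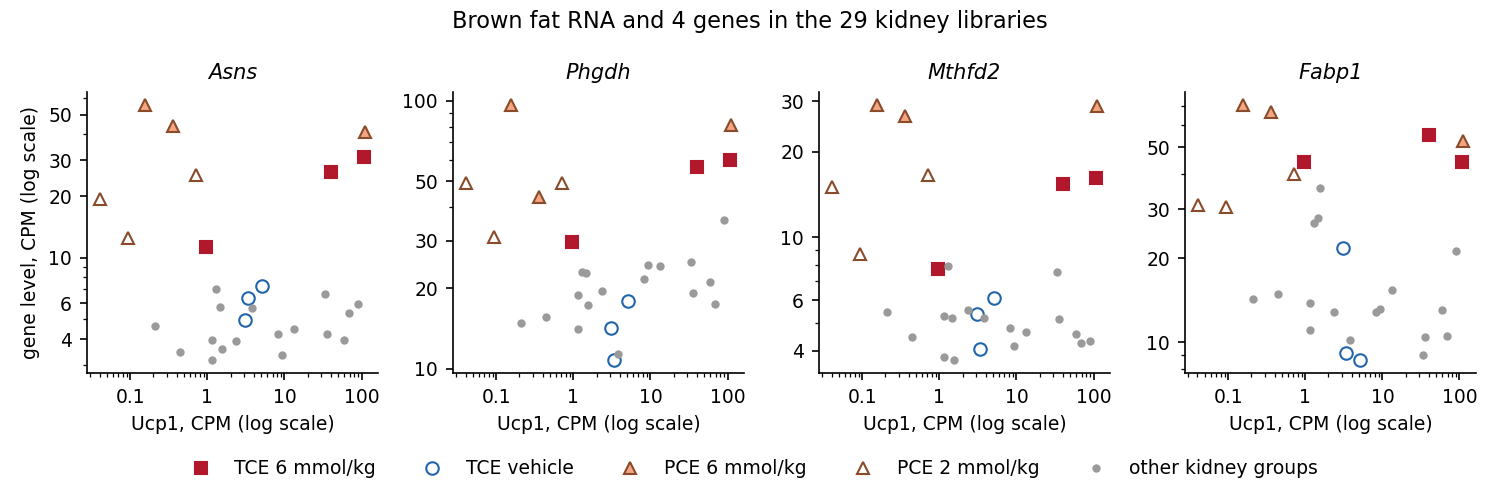
Each panel plots 1 gene's level against the brown fat marker Ucp1 in the 29 kidney libraries, both in CPM on log axes, with squares for TCE 6 mmol/kg, open circles for TCE vehicle, filled triangles for PCE 6 mmol/kg and open triangles for PCE 2 mmol/kg. Libraries with high Ucp1 occur at both low and high Asns, from 3.94 CPM in a PCE 0.22 mmol/kg library to 41.2 CPM in a PCE 6 mmol/kg library.

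Of the 25 tested members of the ATF4 and amino acid response list, 3 rose, none fell and 22 did not pass the test. In 10 of the 25 the dose libraries all lay above the vehicle libraries, and in none all below, against 8.1% and 7.82% of all tested genes. The list's median log2 fold change was 0.18, against 0.0073 over all genes. That median was 0.38 without vehicle library 3 and 0.11 without dose libraries 1 and 2. Atf5, a stress-induced transcription factor related to ATF4, had 11.45, 8.22 and 7.16 CPM at the dose and 1.54, 1.98 and 2.80 CPM in vehicle (log2 fold change 2.08, SE 0.50, adjusted p = 0.0858). Its groups did not overlap, but it missed the threshold. Slc3a2, the heavy chain of amino acid exchangers, stood at a log2 fold change of 0.60 (adjusted p = 0.15), Pck2, the mitochondrial phosphoenolpyruvate carboxykinase, at 0.36 (adjusted p = 0.0858) and Psat1, the enzyme after Phgdh in serine synthesis, at 0.75 (adjusted p = 0.46). The stress-linked members had other values: Ddit3 was at −0.05, Trib3 at 0.05 and Chac1 at −0.69, with adjusted p-values of 0.67 to 0.98. Atf4 mRNA itself was at 9.16, 6.70 and 7.88 CPM at the dose and 4.87, 6.37 and 9.52 CPM in vehicle, with overlapping groups.

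The promoter windows of Asns and Fabp1, the pair of rising genes with the largest log2 fold changes, are shown for the motifs a script found there. Each runs from 250 bases before the gene's start to 50 after it, taken from RefSeq on GRCm38.p6. For Asns (chr6:7693160-7693459, minus strand) the capitals mark the amino acid response element core TGATGNAA, the sequence bound by ATF4, at positions −23 to −16 from the start. For Fabp1 (chr6:71199629-71199928, plus strand) they mark TGACCTNTG, part of the direct repeat bound by PPAR receptors, read from the opposite strand (1 full AGGTCA unit with the spacer and the end of the other), at −67 to −59.
Asns: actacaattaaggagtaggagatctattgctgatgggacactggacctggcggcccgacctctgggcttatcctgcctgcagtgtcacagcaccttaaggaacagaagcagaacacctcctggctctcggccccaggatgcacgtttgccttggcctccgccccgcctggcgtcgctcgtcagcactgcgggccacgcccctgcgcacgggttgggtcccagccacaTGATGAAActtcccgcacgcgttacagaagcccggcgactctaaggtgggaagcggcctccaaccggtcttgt
Fabp1: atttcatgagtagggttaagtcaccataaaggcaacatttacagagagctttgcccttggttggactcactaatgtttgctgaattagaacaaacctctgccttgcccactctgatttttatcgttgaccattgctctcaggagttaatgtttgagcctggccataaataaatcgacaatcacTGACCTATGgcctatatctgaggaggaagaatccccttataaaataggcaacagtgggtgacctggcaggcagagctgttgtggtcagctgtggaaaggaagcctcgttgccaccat
Searched on both strands, TGATGNAA occurred in 3.97% of 32851 promoter windows of the same length, TGACCTNTG in 1.61% and the full direct repeat, which was in neither window, in 0.0396%. The windows of Phgdh and Mthfd2 were searched too, and neither held any of these motifs. A match is a description of the letters and not of binding.

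Fabp1, the liver-type fatty acid binding protein and a PPARα target (chromosome 6, 71199879 to 71205034), had 55.2, 44.2 and 44.4 CPM at the dose, against 9.16, 21.7 and 8.61 CPM in vehicle. The mean was 47.9 ± 6.29 CPM at the dose and 13.2 ± 7.42 CPM in vehicle (SD, n = 3 each; log2 fold change 1.87, SE 0.33, adjusted p = 0.0206). Here dose library 3 was as high as library 2, and the log2 fold change from library 3 alone was 1.76. Cyp4a14, a fatty acid ω-hydroxylase and PPARα target (chromosome 4, 115486200 to 115496158), had a larger fold change, with 173, 94.5 and 80.4 CPM at the dose and 11.7, 17.1 and 9.37 CPM in vehicle (log2 fold change 3.19, SE 0.74). The groups were far apart, yet the adjusted p was 0.0821 and the gene was not called. Cyp4a10, its close relative, had 904, 708 and 680 CPM at the dose and 316, 310 and 338 CPM in vehicle (log2 fold change 1.25, adjusted p = 0.14). Reads shared by Cyp4a paralogs may have been dropped or split in the authors' counting, so the values of single members are uncertain.

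In the list of 7 tested Cyp4a hydroxylases none was called, 4 had the dose libraries all above vehicle, and the median log2 fold change was 0.38. Over all tested genes 8.1% had the dose libraries all above vehicle and 7.82% all below. Cyp4a12a, the abundant androgen-dependent member, was at −0.18. Among 12 acyl-CoA thioesterases none was called. Acot1, a cytosolic PPARα target, had 186, 141 and 192 CPM at the dose and 104, 94.0 and 97.7 CPM in vehicle (log2 fold change 0.81, adjusted p = 0.17), and its mitochondrial neighbour Acot2, which is similar in sequence, had 68.5, 65.4 and 61.5 CPM at the dose and 44.6, 38.8 and 41.7 CPM in vehicle (0.64, adjusted p = 0.0858). Both pairs of groups were separate, but neither gene passed. Mitochondrial β-oxidation and ketogenesis had no call in 22 members, with 10 above and 4 below vehicle in all libraries and a median of 0.16; Acaa2, the thiolase that ends each cycle, had the smallest adjusted p (log2 fold change 0.55, adjusted p = 0.0815). The 22 members of peroxisomal β-oxidation had a median of 0.017 and no call. Fatty acid uptake and lipid droplet genes had 1 call, Fabp1, in 23 members and a median of 0.31, which was 0.036 without the brown fat libraries and 0.15 without vehicle library 1; this list holds the fat genes Cidea and Fabp4, which like Ucp1 were highest in dose libraries 1 and 2.

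Mcm6, a subunit of the replicative helicase (chromosome 1, 128331575 to 128359705), had 58.6, 67.3 and 56.4 CPM at the dose and 44.9, 36.8 and 46.8 CPM in vehicle, a log2 fold change of 0.51 (SE 0.10, adjusted p = 0.0367). It was the only called gene of the 23 tested members of the DNA replication and cell cycle list. In that list 12 had the dose libraries all above vehicle and 1 all below, against 8.1% and 7.82% of all tested genes. The median log2 fold change of the list was 0.50. Mcm3 was at 1.15 (adjusted p = 0.0556), Mcm4 at 0.83 (adjusted p = 0.0820), Pcna, the sliding clamp, at 0.34 (adjusted p = 0.11) and Ccnd1, cyclin D1, at 0.72 (adjusted p = 0.29). At TCE 0.22 mmol/kg Mcm3 had 7.53 to 8.19 CPM and Mcm4 8.69 to 9.47 CPM, above all vehicle libraries. Dose library 3 held 8.43 CPM of Mcm3 and 8.98 CPM of Mcm4. Mki67, a marker of dividing cells, had 9.00, 11.3 and 9.06 CPM at the dose and 4.78, 6.00 and 8.57 CPM in vehicle (log2 fold change 0.60, adjusted p = 0.78), with vehicle library 3 close to the dose libraries. The list's median was 0.40 without dose libraries 1 and 2, which had the highest Mcm3 and Mcm4. Pole, the leading-strand DNA polymerase and not on that list, had 5.19, 7.22 and 3.94 CPM at the dose and 1.45, 1.41 and 2.43 CPM in vehicle (log2 fold change 1.62, SE 0.30, adjusted p = 0.0236).

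Pole and the remaining rising genes of low level were set against a vehicle group that was low for the tissue. In the 20 kidney libraries outside TCE 6 mmol/kg, its vehicle and PCE 6 mmol/kg, Pole ranged from 1.78 to 5.99 CPM with a median of 3.09, so that the dose libraries overlapped this range and 2 of the 3 vehicle libraries lay under it. Pigz, a mannosyltransferase of glycosylphosphatidylinositol anchors, had 3.35, 3.70 and 2.67 CPM at the dose and 0.921, 1.33 and 1.67 CPM in vehicle (log2 fold change 1.30, adjusted p = 0.0378), against a median of 2.56 CPM in those 20 libraries. Sptlc3, a subunit of serine palmitoyltransferase, had 1.77, 1.67 and 1.57 CPM at the dose and 0.658, 0.564 and 0.908 CPM in vehicle (1.22, adjusted p = 0.0202), with a median of 1.34 CPM there. The TCE vehicle group was below the PCE vehicle group by a log2 difference of −1.13 for Pole, −1.19 for Pigz and −0.94 for Sptlc3, each with an adjusted p of 0.466; no gene was called between the vehicle groups. For Asns, with a range of 3.15 to 25.3 CPM and a median of 4.56 CPM in the 20 libraries, the vehicle libraries lay within that range. For Fabp1, with 9.02 to 40.1 CPM and a median of 14.1 CPM, 1 vehicle library lay just under it. Phgdh ranged from 11.4 to 49.35 CPM in the 20 libraries, with a median of 21.3 CPM. Its vehicle library 1 lay under that range and all 3 vehicle libraries under the median, while the PCE vehicle libraries held 19.6 and 24.4 CPM. Dose library 3 lay within the range for Phgdh, and dose libraries 1 and 2 above it. Rsad1, a radical SAM domain protein, had 10.5, 10.1 and 9.06 CPM at the dose and 6.67, 6.08 and 6.87 CPM in vehicle (log2 fold change 0.60, adjusted p = 0.0339).

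The transporters Slc22a7, Slc7a13 and Slco3a1 fell. Slc22a7, the organic anion transporter OAT2 (chromosome 17, 46432185 to 46438477), had 272, 257 and 270 CPM at the dose, against 724, 498 and 563 CPM in vehicle. The means were 266 ± 7.95 CPM at the dose and 595 ± 116 CPM in vehicle (SD, n = 3 each; log2 fold change −1.16, SE 0.23, adjusted p = 0.0360). The dose libraries were within a narrow band, and library 3 alone gave −1.14. Slc7a13, an aspartate, glutamate and cystine transporter of the straight proximal tubule (chromosome 4, 19818727 to 19842213), had 771, 680 and 870 CPM at the dose and 1735, 1380 and 1414 CPM in vehicle (log2 fold change −0.96, SE 0.18, adjusted p = 0.0236). In the same 20 libraries it ranged from 634.6 to 1466 CPM with a median of 1172. The lowest of the 20 was PCE 2 mmol/kg library 3. The dose libraries lay above that library and below all the others, the lowest of which held 1010 CPM. Vehicle library 1 lay above the range, and all 3 vehicle libraries lay above the median. Slco3a1, an organic anion transporting polypeptide, had 137, 140 and 157 CPM at the dose and 245, 230 and 183 CPM in vehicle (−0.60, SE 0.11, adjusted p = 0.0236).

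Of 26 tested organic ion transporters 2 fell, Slc22a7 and Slco3a1, none rose, and the median log2 fold change was −0.11. In all libraries 3 were above and 7 below vehicle, against 8.1% and 7.82% of all tested genes. Slc22a6, the main renal organic anion uptake transporter OAT1, had 2253, 2698 and 3055 CPM at the dose and 2871, 3083 and 2242 CPM in vehicle, with overlapping groups. Of 23 reabsorption genes Slc7a13 alone was called, with a median of −0.07, which was 0.02 without vehicle library 2 or without dose libraries 1 and 2; Slc6a19, the neutral amino acid carrier of the early tubule, was at 539, 458 and 374 CPM at the dose and 236, 255 and 279 CPM in vehicle (0.83, adjusted p = 0.24), and Slc34a1, the phosphate carrier, was at 0.05. Among 16 proximal tubule markers Slc22a7 and Slc7a13 fell, and the median was −0.13, or −0.03 without dose libraries 1 and 2. The summed level of these markers was 66370 to 72230 CPM at the dose and 76310 to 89020 CPM in vehicle, most of it from Kap, an androgen-regulated kidney protein, at 41450, 40710 and 44260 CPM at the dose and 62410, 59070 and 50180 CPM in vehicle (−0.44, adjusted p = 0.0820). In whole-kidney RNA, fewer cells of a type and less RNA per cell cannot be told apart.

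Nt5e, the CD73 ecto-nucleotidase that makes adenosine (chromosome 9, 88327609 to 88372089), had 149, 153 and 169 CPM at the dose and 336, 377 and 309 CPM in vehicle (log2 fold change −1.12, SE 0.22, adjusted p = 0.0339). In the 20 other kidney libraries Nt5e ranged from 173.7 to 406.8 CPM with a median of 270.4. Its dose libraries lay below this range and its vehicle libraries within it. Ggct, γ-glutamyl cyclotransferase of the glutathione cycle, had 44.30, 44.97 and 57.79 CPM at the dose and 96.3, 95.8 and 65.0 CPM in vehicle (−0.81, adjusted p = 0.0158). Eci3, an enoyl-CoA isomerase of fatty acid oxidation whose sequence is close to that of Eci2, had 260, 222 and 318 CPM at the dose and 492, 467 and 388 CPM in vehicle (−0.75, adjusted p = 0.0158). In both genes dose library 3 was the nearest to vehicle and vehicle library 3 the nearest to the dose. The log2 fold change of Eci3 from dose library 3 alone was −0.50, and that of Ggct −0.57.

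Kmo, kynurenine 3-monooxygenase of tryptophan breakdown, had 134, 127 and 142 CPM at the dose and 200, 194 and 181 CPM in vehicle (log2 fold change −0.51, SE 0.08, adjusted p = 0.0158). Ivd, isovaleryl-CoA dehydrogenase of leucine breakdown, had 559, 521 and 587 CPM at the dose and 743, 735 and 749 CPM in vehicle (−0.42, SE 0.07, adjusted p = 0.0158). Acad12, an acyl-CoA dehydrogenase, was at −0.51, Lap3, leucine aminopeptidase, at −0.49 and Nfs1, the cysteine desulfurase of iron-sulphur cluster assembly, at −0.30, with adjusted p-values of 0.0158, 0.0367 and 0.0245. These 5 genes were taken from the called genes after their values were seen, and no list of amino acid breakdown was tested.

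The remaining genes that fell had varied roles. Ifitm7, an interferon-induced transmembrane family member, had the largest fall, at 1.26, 1.07 and 1.40 CPM at the dose and 9.43, 3.63 and 4.87 CPM in vehicle (log2 fold change −2.26, SE 0.46, adjusted p = 0.0368); Ifitm genes are alike in sequence, which makes the value uncertain. In the 20 other kidney libraries Ifitm7 ranged from 0.890 to 5.80 CPM with a median of 2.63, so that the dose libraries lay within this range and vehicle library 1 above it; PCE vehicle library 1 was at 1.345 CPM. Rtl6, a retrotransposon-derived gag-like gene, had 11.4, 11.4 and 12.4 CPM at the dose and 31.7, 24.1 and 24.5 CPM in vehicle (−1.19, adjusted p = 0.0339). Serpinf2, the plasmin inhibitor α2-antiplasmin, had 419, 436 and 596 CPM at the dose and 884, 847 and 687 CPM in vehicle (−0.74, adjusted p = 0.0449), and −0.43 from dose library 3 alone. Tlcd2 was at −0.81 (adjusted p = 0.0470; −0.50 from dose library 3 alone) and the unnamed 9030619P08Rik at −1.38 (adjusted p = 0.0339). None of the 21 interferon-stimulated genes tested was called, and their median was −0.02.

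Genes of the bioactivation pathway and of kidney damage were not called. In the glutathione conjugation and mercapturate list all 30 members were tested and none passed, with a median log2 fold change of −0.01. In all libraries 7 were above and 4 below vehicle, against 8.1% and 7.82% of all tested genes. Ggt1, the γ-glutamyl transferase of the brush border, had 2367, 2329 and 2795 CPM at the dose and 3205, 3082 and 2505 CPM in vehicle (−0.23, adjusted p = 0.42). Kyat1, a cysteine conjugate β-lyase, was at −0.08 (SE 0.13) and Acy1, which removes the acetyl group of mercapturates, at −0.60 (adjusted p = 0.0744). Cyp2e1, the P450 that oxidises TCE, was at −0.003 with a standard error of 0.17 (adjusted p = 0.997). Havcr1, the injury marker KIM-1, had 7.45, 5.82 and 2.71 CPM at the dose and 6.93, 2.62 and 4.21 CPM in vehicle, with overlapping groups (0.23, SE 0.42). Over 24 tested injury markers the median was 0.03 with none called (0.15 without vehicle library 3), over 20 p53 targets it was 0.18 with none called (0.11 without vehicle library 1, 0.30 without vehicle library 3), and Cdkn1a, the p53-induced cell cycle inhibitor, was at −0.51 (SE 0.36, adjusted p = 0.71). Among 22 NRF2 targets of oxidative stress none was called, and the median was 0.05.

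Lists of protein folding held no call, and no member had all dose libraries above vehicle. Over all tested genes 8.1% were above vehicle in all libraries and 7.82% below. Endoplasmic reticulum chaperones had a median log2 fold change of −0.38 over 24 genes, with 13 below vehicle in all libraries and none above, and P4hb, protein disulphide isomerase, was closest to the threshold at 951, 909 and 1048 CPM at the dose and 1203, 1252 and 1129 CPM in vehicle (−0.30, adjusted p = 0.0910). Heat shock proteins had a median of −0.37 over 21 genes with 8 below and none above. Vehicle library 2, the library with the most Alb, had the highest summed level of heat shock proteins, at 17160 CPM, against 9866, 9902 and 10650 CPM at the dose and 11420 and 11900 CPM in the other vehicle libraries. Hsp90aa1, the inducible cytosolic HSP90, had 632, 679 and 699 CPM at the dose and 854, 1417 and 772 CPM in vehicle. Without vehicle library 2 the medians were −0.30 for the chaperones and −0.16 for the heat shock proteins. Sex-biased kidney genes had a median of −0.39 over 16 genes, with 5 below and 1 above.

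Clock genes had values in both directions and no call. Dbp, a clock-controlled transcription factor, had 62.8, 61.1 and 44.8 CPM at the dose and 6.58, 5.56 and 12.8 CPM in vehicle (log2 fold change 2.75, SE 0.64, adjusted p = 0.0820). Ciart, a repressor with a daily rhythm, was at 1.96 (adjusted p = 0.0815), Nr1d2, a clock repressor, at 1.07 (adjusted p = 0.14), and the clock genes Npas2, Cry1 and Arntl at −1.44, −1.43 and −1.38 (adjusted p = 0.101, 0.111 and 0.106). The dose and vehicle libraries were separate for each of these 6 genes. Of 17 members 4 were above and 5 below vehicle in all libraries, against 8.1% and 7.82% of all tested genes. The hour of tissue collection was not given. In the 20 other kidney libraries Dbp ranged from 4.03 to 61.8 CPM with a median of 9.49. The highest of these were PCE 2 mmol/kg libraries 2 and 3, at 61.8 and 33.8 CPM, and the rest reached at most 21.85 CPM.

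**Figure D3:**
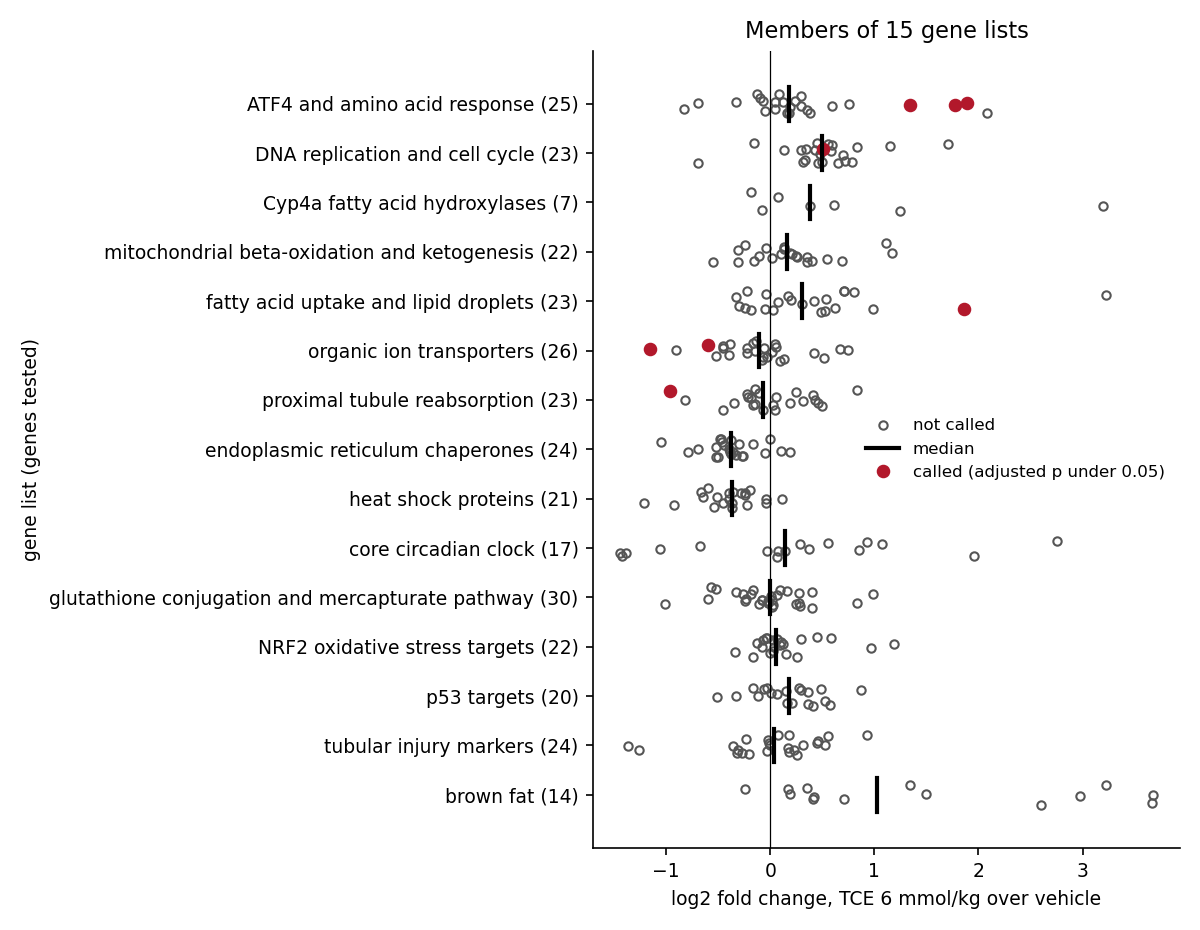
Each point is 1 tested gene of 15 lists, at its log2 fold change of TCE 6 mmol/kg over vehicle, with filled points for called genes, open points for the rest and bars for list medians. The filled points lie in 5 lists, the medians of the chaperone and heat shock lists are −0.38 and −0.37, and the brown fat list has the highest median, 1.0, with no call.

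Among the lists of cell type markers no gene was called apart from the pair in the proximal tubule. The 14 tested brown fat genes had a median log2 fold change of 1.0, which was −0.16 without dose libraries 1 and 2; Ucp1 itself stood at 3.68 with a standard error of 1.96 (adjusted p = 0.56). Podocyte markers had a median of 0.40, which was 0.16 without vehicle library 1 and 0.79 without vehicle library 3, and endothelial markers a median of 0.28, which was 0.13 and 0.63. Vehicle library 1 was low for podocyte genes, with Nphs1, nephrin of the slit diaphragm, at 29.89, 36.11 and 34.04 CPM at the dose and 9.69, 22.2 and 32.2 CPM in vehicle. The median was 0.02 for macrophage markers and −0.30 for thick ascending limb markers, the second of which was −0.70 without dose libraries 1 and 2. Hepatocyte markers had a median of −1.0, which was 0.02 without vehicle library 2. Their summed levels overlapped between groups for endothelium, at 246.7 to 280.5 CPM at the dose and 149.3 to 307.6 CPM in vehicle, and not for macrophages, at 104.2 to 110.7 CPM at the dose and 135.9 to 161.1 CPM in vehicle, with Csf1r, the macrophage growth factor receptor, at 70.1, 58.5 and 54.7 CPM at the dose and 122, 83.2 and 107 CPM in vehicle (adjusted p = 0.19). Csf1r contributed more to that sum than any other member, and the other 9 tested macrophage markers had log2 fold changes of −0.17 to 0.25. Tek and Ptpro, of the endothelial and podocyte lists, were at 0 in all 6 libraries. The part of cell composition in the changes above was not tested.

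The lower TCE doses gave 1 call in all. Against vehicle, 0 genes were called at 0.22 mmol/kg (728 at an unadjusted p under 0.05), 1 at 0.67 mmol/kg (0.00703%, 1762 unadjusted) and 0 at 2 mmol/kg (606 unadjusted). TCE 0.67 mmol/kg library 3 carried adrenal RNA, with Cyp11b1 at 566, Star at 1282 and Th at 106 CPM, and brown fat RNA, with Ucp1 at 33.8 CPM; its part in the 0.67 mmol/kg count was not tested. A trend over the dose rank, fitted on the 15 TCE kidney libraries and sharing its vehicle and 6 mmol/kg libraries with the comparison above, gave no call by edgeR among 13702 genes (1243 unadjusted) and 139 by DESeq2, and 13 by edgeR without that library. Asns was at 3.15 to 6.66 CPM in the 9 libraries of the lower doses. At 2 mmol/kg all 3 libraries for Phgdh and 1 for Fabp1 lay above all vehicle libraries: Phgdh had 18.9, 35.8 and 22.9 CPM and Fabp1 13.9, 21.2 and 27.8 CPM there, in order of library. The library of these with the most Phgdh, TCE 2 mmol/kg library 2, held Ucp1 at 90.4 CPM. Phgdh also lay above all TCE vehicle libraries in TCE 0.22 mmol/kg library 2 and TCE 0.67 mmol/kg libraries 2 and 3, at 19.1, 21.6 and 24.9 CPM. The same held for both PCE vehicle libraries, at 19.6 and 24.4 CPM. Among genes that fell, Eci3 and Slc22a7 had intermediate means at 0.67 and 2 mmol/kg, and Nt5e overlapped vehicle there.

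**Figure D4:**
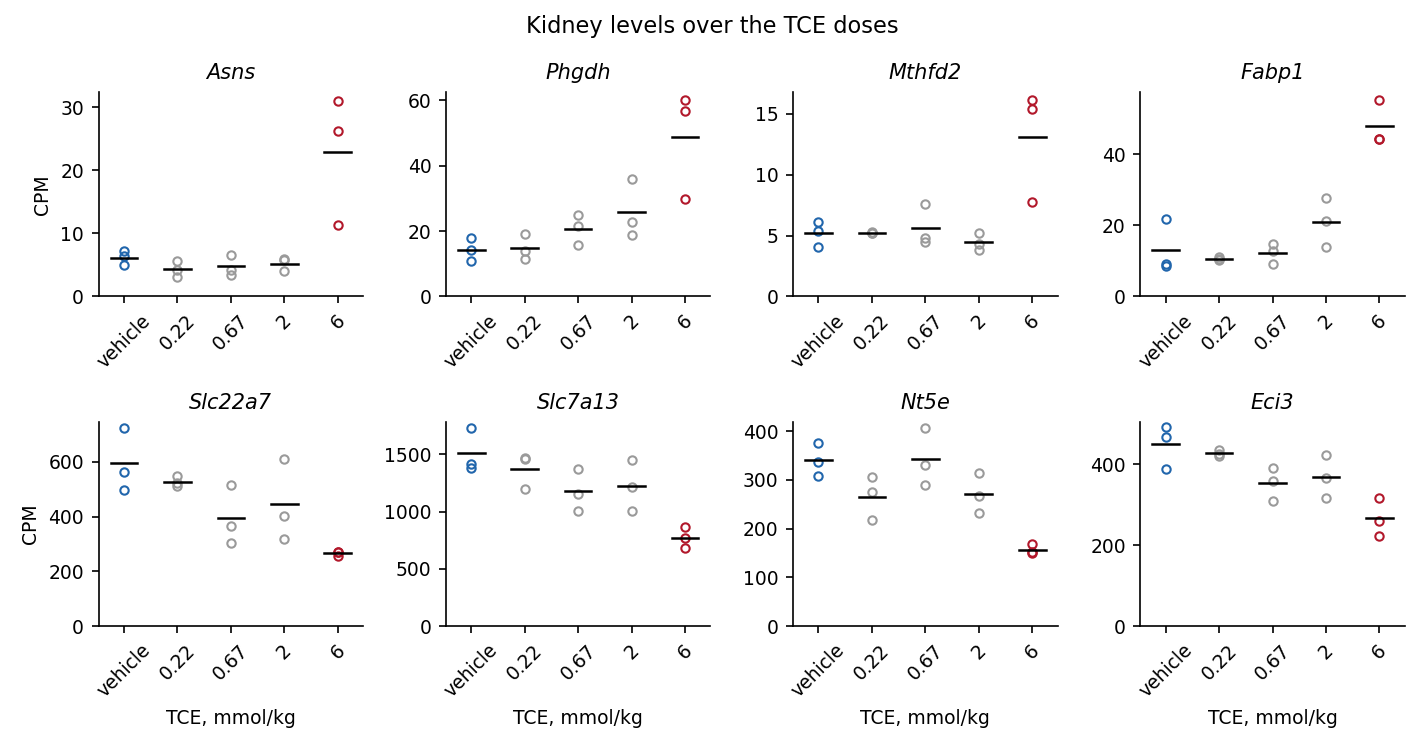
Levels in CPM of 4 genes that rose (above) and 4 that fell (below) in the 15 TCE kidney libraries, by dose in mmol/kg with vehicle at the left; circles are libraries and bars group means. At 6 mmol/kg the 3 libraries are separate from vehicle in all 8 panels, and Asns is at 11.3 to 31.0 CPM there.

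PCE carries a chlorine in place of the hydrogen of TCE, and both were given at 6 mmol/kg, PCE at about 1000 mg/kg. With PCE 545 kidney genes were called against the PCE vehicle group (3.83% of 14216), 252 higher (1.77%) and 293 lower (2.06%), with 3 dose and 2 vehicle libraries. Of the 25 genes called with TCE 13 were also called with PCE, and 24 had the same sign, Mcm6 being the exception at 0.51 with TCE and −0.14 with PCE; each solvent had its own vehicle libraries, and the fit shared 1 estimate of the spread. Slc7a13 was at −0.96 with TCE and −1.21 with PCE, Slc22a7 at −1.16 and −1.12, and Phgdh at 1.77 and 1.75. The difference of the 2 responses, TCE minus PCE, was 0.02 for Phgdh (95% interval −0.96 to 1.01), −0.04 for Slc22a7 (−0.75 to 0.66) and −0.43 for Fabp1 (−1.42 to 0.56). A p that missed the threshold does not show that the solvents acted alike.

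For 3 genes the TCE and PCE responses differed (0.0211% of 14216), all lower with TCE. Chac1, a glutathione-degrading enzyme induced in stress, had 1.48, 1.33 and 1.27 CPM at TCE 6 mmol/kg and 1.27, 0.806 and 4.47 CPM in its vehicle group, with overlap, and a mean of 13.7 ± 5.25 CPM at PCE 6 mmol/kg (SD, n = 3) and 1.47 ± 0.588 CPM in PCE vehicle (SD, n = 2). The log2 fold change was −0.69 with TCE and 3.23 with PCE, a difference of −3.93 (SE 0.68, adjusted p = 0.0382). Trib3, a stress-induced pseudokinase, was at 0.05 with TCE and 3.71 with PCE (difference −3.66, SE 0.53, adjusted p = 0.00556), and Acot2 at 0.64 and 2.04 (difference −1.40, SE 0.24, adjusted p = 0.0365). Asns rose with both and by different amounts, 1.89 with TCE and 3.70 with PCE, but this difference of −1.81 did not pass (95% interval −2.86 to −0.75, adjusted p = 0.30). With the 11 libraries of the 4 groups alone no difference was called (894 at an unadjusted p under 0.05), and the 3 genes were not among the 2 called, both higher, without TCE libraries 1 and 2.

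**Figure D5:**
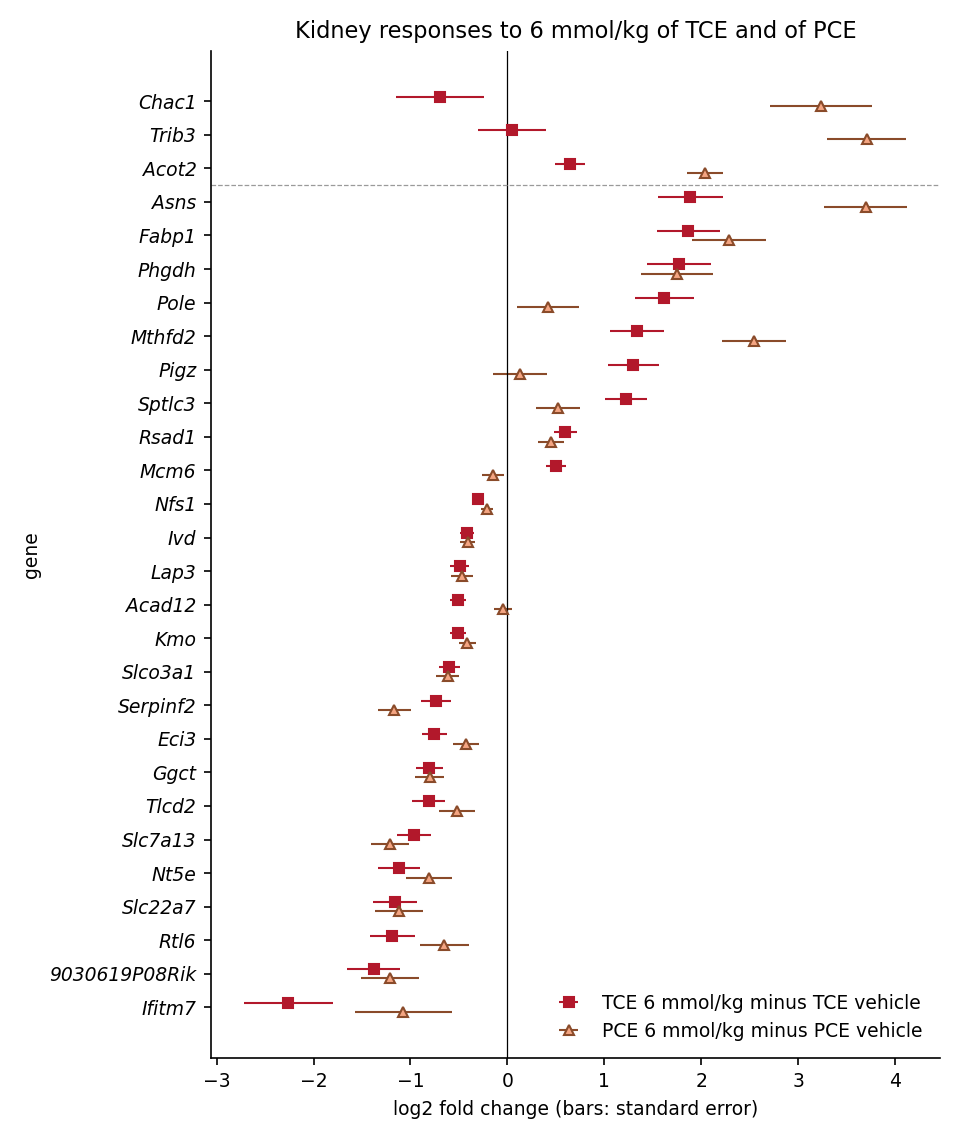
Log2 fold changes of the 25 genes called with TCE and, above the dashed line, of the 3 genes whose responses differed, with squares for TCE 6 mmol/kg over its vehicle, triangles for PCE 6 mmol/kg over its vehicle and bars for standard errors. Chac1 and Trib3 are near or below 0 with TCE and at 3.23 and 3.71 with PCE.

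In the liver the same TCE dose changed 623 of 14949 genes (4.17%), 268 higher (1.79%) and 355 lower (2.37%), and the kidney and liver responses differed for 49 (0.328%), 19 higher (0.127%) and 30 lower (0.201%) in kidney. The liver libraries of these 2 groups were deeper than the kidney libraries, at 89805766 to 118064716 gene counts, and the part of depth in the counts of called genes was not tested. Of the 25 kidney genes, Fabp1, Slc22a7 and Eci3 were called in liver too. Fabp1 was at 1.19 in liver, and Slc22a7 at −1.32. Eci3 had opposite signs, with a log2 fold change of −0.75 in kidney and 1.02 in liver (difference −1.78, SE 0.31, adjusted p = 0.00181), and Pole was the other of the 25 whose responses differed, at 1.62 in kidney and −0.25 in liver (difference 1.86, adjusted p = 0.0143). Cyp4a10 and Ehhadh, PPARα targets that rose in liver, were not called in kidney. Cyp4a10 averaged 764 ± 122 CPM at the dose and 321 ± 14.6 CPM in vehicle in kidney, against 1817 ± 528 CPM and 35.9 ± 36.6 CPM in liver (SD, n = 3 each; difference −4.43, adjusted p = 0.00725), and Ehhadh, the peroxisomal bifunctional enzyme, was at 0.10 in kidney and 2.67 in liver (difference −2.57, adjusted p = 0.000717). For Cyp4a14 the difference of −4.67 (kidney 3.19, liver 7.86) did not pass (adjusted p = 0.10). Without the brown fat libraries 2 differences were called, and with the 12 libraries of the 4 groups alone 1.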

How the data were processed

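RNA from kidney and liver was sequenced, and the deposited tables hold raw read counts per RefSeq transcript, 1 column per library, per the file headers. Columns at 0.22 and 0.67 mmol/kg hold what is recorded here under expected counts, deposited by the authors in the same form, because their dose line holds a decimal, per the file headers; all counts in them were whole. CASAVA 1.8.2, TopHat2 2.0.10, HTSeq and mm10 are named without roles in the submitters' processing notes; the sources used here do not give the strand setting of counting. Of 33392 transcripts 32988 were named by RefSeq accession, 278 by the deposited symbol and 126 by accession, and counts were summed to 24122 genes; lines for ambiguous reads (19.68% to 20.76% in the 6 libraries) and reads outside features (21.67% to 27.53%) were left out.

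All 29 kidney libraries were fitted together with 1 mean per group in edgeR 4.0.16 (R 4.3.3) with filterByExpr, TMM scaling and the robust quasi-likelihood F test, at a Benjamini-Hochberg adjusted p under 0.05; the liver comparison used all 58 libraries. The steps were tested on simulated counts. CPM values use TMM-scaled totals, and a standard error is the absolute log2 fold change over the square root of F. DESeq2 1.42.0, other scalings, filters, sample sets, covariates and leaving out each library were alternatives. The genes named were the 10 higher and 10 lower with the largest called change (mean of at least 1 CPM, no predicted names), the called member of each list with the smallest adjusted p, and 8 genes fixed by name (Cyp4a14, Acot1, Cyp2e1, Cdkn1a, Havcr1, Ggt1, Kyat1, Ucp1); any other gene in the text was picked with its values already seen. For the differences of responses they were the 5 higher and 5 lower. The members and lists were chosen with earlier results of these data known. Gene positions and promoters are from RefSeq on GRCm38.p6.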

Additional observations from a re-analysis of the deposited data

Results flagged for a closer look

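The kidney response to 6 mmol/kg differed between TCE and PCE, by a test of the difference itself, for 3 genes. The difference of log2 fold changes, TCE minus PCE, was −3.93 for Chac1, −3.66 for Trib3 and −1.40 for Acot2.

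The TCE response differed between kidney and liver for the genes that follow, again by a test of the difference, given as kidney minus liver on the log2 scale. It was higher in kidney by 3.68 for Clic3, a chloride intracellular channel protein, whose log2 fold change was 0.64 in kidney and −3.04 in liver (adjusted p = 0.000426). It was higher by 3.13 for Slc13a5, the citrate transporter (−0.47 in kidney, −3.60 in liver), by 2.36 for the antisense transcript Slc13a2os, whose reads cannot be told from those of its partner without a strand setting, by 2.06 for Ang, angiogenin, and by 2.05 for Atp11a, a phospholipid flippase. The difference was −4.43 for Cyp4a10, −3.14 for Rapgef4, −2.87 for Cyp4a31, −2.57 for Ehhadh and −1.83 for Acot2. Acot2 thus differed in both tests, with log2 fold changes of 0.64 for TCE in kidney, 2.04 for PCE in kidney and 2.47 for TCE in liver.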

How the results depend on the processing

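The 25 calls at TCE 6 mmol/kg were 26 with DESeq2 size factors, 21 in the 6 libraries alone (6 genes shared), 26 by transcript and 33 without the library with adrenal RNA. They were 11 without a count filter, 138 with DESeq2, 11 in the 15 TCE libraries, 43 with both vehicle groups pooled, 0 with the brown fat list level as a covariate (1408 at an unadjusted p under 0.05), 14 with Ucp1 as a covariate, 61 with GC and length slopes and 0 without both brown fat dose libraries. Leaving out 1 library gave 0 to 55. The TCE minus PCE count of 3 was 49 with DESeq2, 0 with 11 libraries and 0 to 39 leaving out 1. The trend count of 0 was 1 without a filter, 139 with DESeq2, 13 without the adrenal library and 0 to 36 leaving out 1. The kidney minus liver count of 49 was 190 with DESeq2, 2 without the brown fat libraries, 1 with 12 libraries and 14 to 137 leaving out 1. The cause of these differences was not tested. The Ucp1 and slope covariates and the sets without adrenal or brown fat libraries were chosen after seeing the data.

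With the replicate number as a block the counts were 23, 2, 0 and 50 in the same order. Same-numbered dose and vehicle libraries correlated at 0.0719, −0.0748 and −0.0237, so the numbers were not read as pairs.

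Signs turned for genes that were not called. Cyp2e1 was at 0.00844 in the 15 TCE libraries, 0.144 with the brown fat list, 0.0896 with Ucp1, 0.101 with slopes, 0.217 without the brown fat libraries and −0.133 to 0.0912 leaving out 1. Havcr1 was at −0.0698 with the brown fat list, −0.753 without the brown fat libraries and −0.0967 to 0.638 leaving out 1. In the brown fat list and left-out settings Kyat1 was at 0.027 and 0.0395 and Ucp1 at −1.48 and −1.98; Ucp1 was at −0.319 with its own covariate, and Cdkn1a at 0.169 without the brown fat libraries.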
